A study of Gallus gallus with 13 samples.

Results

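The regions described are the 20 kb windows of chicken chromosome 1 in which the S-phase fraction with the most nascent DNA differed by 1 step between a modified clone of DT40 cells and wild-type (Wt) DT40 cells. Of 9808 windows tiled from position 1 of the chromosome (galGal5), 78 overlapped the region targeted by the study, 71981290 to 73532377, and were set aside, which left 9730. In 21 of these all 4 fractions were at 0 in at least one of the lines, so no fraction led. In the other 9709 windows the leading fraction differed by exactly 1 number in 837, which is 8.62% of them. It was the same in 8611 windows (88.7%) and differed by 2 or 3 numbers in 261 (2.69%). The windows were selected on the leading fraction measured in these 8 libraries, so their counts, sizes and positions are a description and no test was made on them.

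The profiles came from Repli-seq of DT40, a line of chicken B lymphocytes that grew out of a tumour of the bursa. A 1 h pulse of the thymidine analogue BrdU marked newly made DNA in dividing cells, which a sorter then divided by progress through S phase into S1 (earliest), S2, S3 and S4 (latest). The marked strands of each fraction were precipitated and sequenced. The clone carried an insertion of regulatory elements on both alleles of the target region, with the genotype label 2x (βA-globin+ β-actin), and is represented by 1 clonal line. Wt carried no insertion. Each fraction of each line was 1 library, 8 in all, so no difference has a replicate error, and the insertion, the history of the clone and the spread between libraries cannot be told apart. The profiles hold no counts, so the depth is unknown, and the asynchronous library and the 4 Hi-C libraries were not analysed here.

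Vertebrate chromosomes replicate in a fixed temporal order. Origins in gene-rich, open chromatin tend to fire early, compact chromatin replicates late, and forks moving out of early regions leave gradients of timing between them. A locus replicated over a short part of S phase gives most of its signal in 1 fraction, while a locus on such a gradient, or one replicated at different times in different cells, divides its signal between neighbouring fractions. A change of leading fraction can therefore mark a large change in timing, or a small one at a place where 2 fractions are nearly equal. The signal of each fraction was therefore expressed as its share of the summed signal of the 4 fractions in that window. The lead is the share of the leading fraction minus that of the fraction that led in the other line, in percentage points.

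Switches to a later fraction were more numerous than switches to an earlier one. The clone was led by a later fraction than Wt in 498 windows (5.13% of those compared) and by an earlier one in 339 (3.49%). The most frequent switch was to S3 in the clone where S2 led in Wt, with 231 windows, and the opposite, S2 in the clone and S3 in Wt, was found in 103. Between the first 2 fractions, 136 windows were led by S2 in the clone and S1 in Wt, and 93 by S1 in the clone and S2 in Wt. Between the last 2, 131 windows were led by S4 in the clone and S3 in Wt and 143 by S3 in the clone and S4 in Wt, an order that depended on the scaling: the counts were 198 and 104 with the baseline at the minimum, and 141 and 133 with the clone quantile normalized to Wt. With the baseline at the minimum, the 173 windows led by S3 in the clone and S2 in Wt were also no longer the most numerous. As a part of the windows each fraction led in Wt, 13.4% of the S2 windows were led by S3 in the clone. The other 5 switches took between 3.47% (S4 in Wt, S3 in the clone) and 7.75% (S3 in Wt, S4 in the clone). Over all compared windows S1 led 1999 in the clone and 2172 in Wt, S2 led 1647 in the clone and 1727 in Wt, S3 led 1836 in the clone and 1691 in Wt, and S4 led 4227 in the clone and 4119 in Wt.

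**Figure D1:**
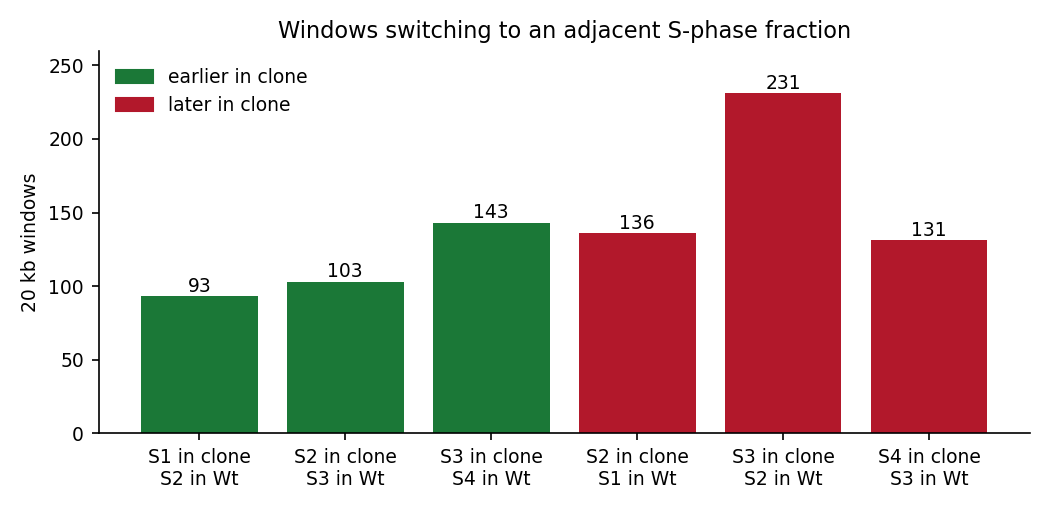
Number of 20 kb windows (y axis, from 0) for each of the 6 switches between adjacent fractions, named by the leading fraction in the clone and in Wt; green bars are earlier and red bars later in the clone. The bar for S3 in the clone and S2 in Wt (231 windows) is the tallest and that for S1 in the clone and S2 in Wt (93) the lowest.

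Most of the switching windows were close to a tie. The median lead was 3.90 percentage points in the clone and 4.56 in Wt. The smaller of the 2 leads of a window had a median of 2.34 points, with an interquartile range from 1.04 to 3.95. It was under 2 points in 373 windows (44.6%), under 5 in 709 (84.7%) and at least 10 in 22. The medians of the 6 switches lay between 2.06 (S4 in the clone and S3 in Wt) and 2.56 (S1 in the clone and S2 in Wt), so no switch stood out by its lead. At the threshold itself, the window at chr1:104860001-104880000 was counted as a switch with S2 at 46.271% and S1 at 46.266% in the clone, against S2 at 35.9% and S1 at 55.4% in Wt. The window at chr1:55520001-55540000 was counted with S1 ahead of S2 by 0.0113 points in Wt. Just outside, chr1:95440001-95460000 kept S4 because S4 was ahead of S3 by 0.00343 points in Wt, and chr1:51620001-51640000 kept S2, ahead of S1 by 0.00675 points in Wt.

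**Figure D2:**
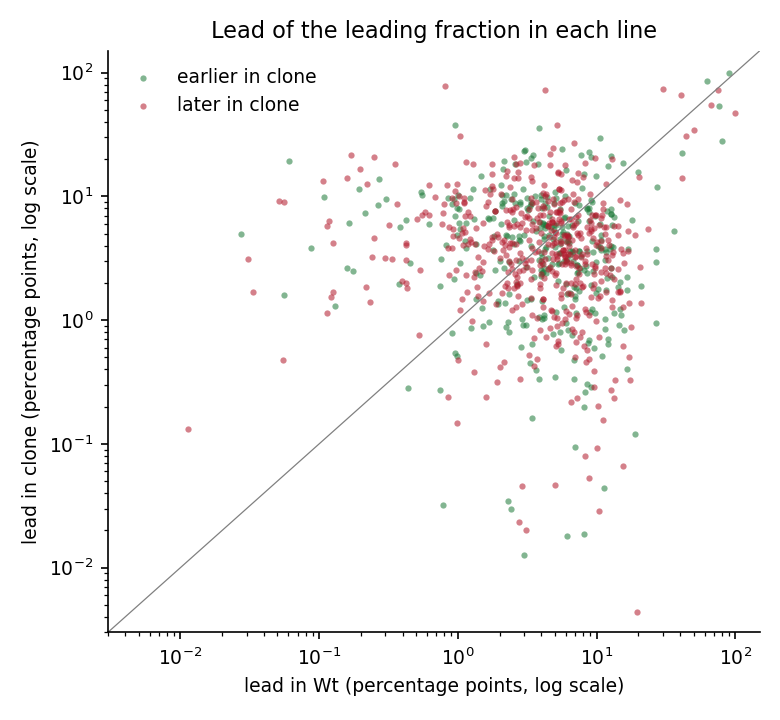
Each point is 1 of the 837 switching windows, with the lead of its leading fraction in Wt on the x axis and in the clone on the y axis, both in percentage points on log scales; the line marks equal leads. The points gather around 1 to 10 points in both lines, and green (earlier in the clone) and red (later) points overlap.

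Windows with a small lead in Wt switched more often than those with a large one; the rule that chose the windows used these same signals. Of 502 windows in which the leading fraction of Wt was under 2 points ahead of the next, 191 switched by 1 fraction (38.0%). The value was 31.7% of 861 windows at 2 to 5 points, 18.8% of 1322 at 5 to 10 points and 4.92% of 2115 at 10 to 20 points. Among the 4909 windows with a Wt lead of 20 points or more it was 0.407%, or 20 windows, 10 earlier and 10 later in the clone. Windows with the same leader in both lines had a median Wt lead of 23.2 points, and 11.5 where that leader was S2 or S3.

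Few switching windows had low signal, in contrast to the windows in which the leader differed by 2 or 3 fractions. The median summed signal in Wt was at the 67.3rd percentile of all windows for the switching windows, at the 15.1st for those 2 or 3 fractions apart and at the 48.0th for those with the same leader. Windows that kept S2 or S3 as leader in both lines lay at the 73.4th percentile, above the switching windows. In the lowest 3 deciles of summed signal lay 14 of the 837 switching windows (1.67%) and 205 of the 261 windows 2 or 3 fractions apart (78.5%). The share of windows that switched by 1 fraction was 0.102% in the second decile and highest in the sixth, at 15.3%. The summed signal of the clone divided by that of Wt had a median of 0.981 in switching windows, 0.997 in windows with the same leader and 0.971 in those of them led by S2 or S3. Windows led by S4 in both lines, which form the late part of the chromosome, had their median at the 23.9th percentile and made up 2434 of the 2921 windows in the lowest 3 deciles (83.3%).

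**Figure D3:**
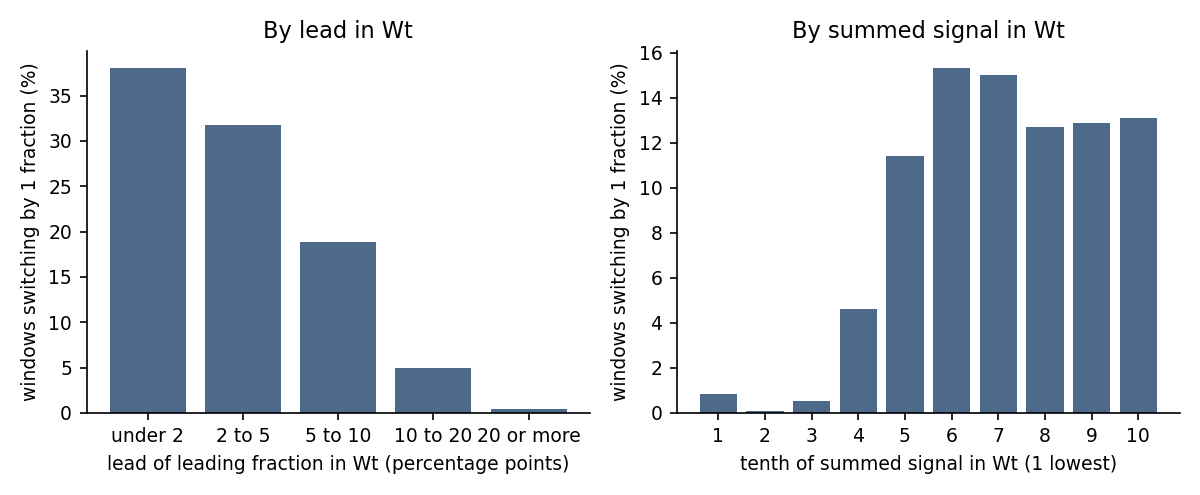
Percentage of 20 kb windows that switched by 1 fraction (y axes, from 0), by the lead of the leading fraction in Wt (left) and by decile of the summed signal in Wt (right, 1 is the lowest). Bars fall with the Wt lead to 0.407% at 20 points or more, and the lowest 3 deciles of signal hold almost no switching windows.

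The median differences in share were larger for the 2 fractions concerned, whose change of order the rule selects, than for the outer fractions. In windows led by S3 in the clone and S2 in Wt, the median S3 share was 39.5% in the clone and 33.6% in Wt, and the median S2 share 33.6% in the clone and 39.2% in Wt. The median of the differences within these windows was 4.89 points for S3 and -5.34 for S2, against -1.03 for S1 and 1.22 for S4. In windows led by S1 in the clone and S2 in Wt, the medians of the differences were 6.39 points for S1, -4.95 for S2, -0.863 for S3 and -1.29 for S4. In windows led by S3 in the clone and S4 in Wt they were 4.40 for S3 and -5.76 for S4, with 0.178 for S1 and 0.517 for S2. In these 3 kinds of switch, no median of an outer fraction exceeded 1.29 points in size, while those of the switching pair lay between 4.40 and 6.39. These are medians of signed differences, in which opposite changes cancel. Where S3 led in the clone and S2 in Wt, the interquartile range was -3.56 to 1.23 for S1 and -0.639 to 3.21 for S4. With S3 in the clone and S4 in Wt it was -2.34 to 3.75 for S2.

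An index that weights all 4 shares, which runs from 1 for a window with signal in S4 alone to 4 for one with signal in S1 alone, mostly differed in the direction of the switch. It is made from the same shares that chose the windows, so this is a description and no support for the switches. The direction was that of the switch in 270 of 339 windows with an earlier leader in the clone (79.6%) and in 401 of 498 with a later leader (80.5%). Among the windows with the same leader, it was higher in the clone in 3907 and lower in 4704. The median difference of the index, clone minus Wt, was 0.0697 in the windows with an earlier leader and -0.0695 in those with a later leader. The median absolute size of this difference was 0.0817 in switching windows and 0.0742 in windows with the same leader. It was 0.0565 in those of the latter led by S2 or S3, and 0.431 in windows 2 or 3 fractions apart. The weighted-average timing profiles of the authors combine the same fraction libraries, so they too are no independent support. They are higher where replication is earlier. The clone was higher in 185 of 337 earlier windows with a value (54.9%) and lower in 358 of 492 later windows (72.8%). The median difference, clone minus Wt, was 0.104 SD units with S1 in the clone and S2 in Wt. It was 0.0295 with S3 in the clone and S4 in Wt, but -0.0595 with S2 in the clone and S3 in Wt. For the later switches it was -0.104 (S2 in the clone, S1 in Wt), -0.248 (S3, S2) and -0.131 (S4, S3). Among windows with the same leader the weighted average was higher in the clone in 4365 of 8536, close to the share among earlier windows. It was lower in 4171 of them, a smaller share than among later windows. By leader, the median difference in these windows was 0.15 SD units for S1, -0.15 for S2, -0.14 for S3 and 0.04 for S4. Of those led by S2 or S3, 1981 of 2841 were lower in the clone, close to the share among later windows. The other 860 were higher, a smaller share than among earlier windows.

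The switches lay mostly at the edges between zones led by neighbouring fractions, with 75.3% of runs and 543 of the 837 switching windows at an edge. The share of all windows that lie at such edges is not given here. With a lead of at least 5 points in both lines the share of runs at an edge was 22.2%. That cutoff drops switching windows, and a run beside a dropped window no longer counts as an edge. The 22.2% therefore does not show where switches with larger leads lie. Consecutive windows with the same switch formed 489 runs, of which 303 held a single window, and 42 held 4 or more. In 368 runs the window on one side was led in both lines by the fraction that led the run in Wt, and the window on the other side by the fraction that led it in the clone, so the run was a moved edge. In 46 runs (9.41%) the windows on both sides kept the fraction that led the run in Wt, so the clone had a short interval of its own there. In 28 runs (5.73%) both sides kept the fraction that led the run in the clone, so an interval of Wt was missing in the clone. The other 47 had another neighbour. Edges made up 75.1% of 193 runs to an earlier and 75.3% of 296 runs to a later fraction. The median length of a moved edge was 20 kb, which is the window size, and the longest was 160 kb.

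Where both edges of a zone were counted as moved, most zones led by S2 or S3 were longer on one side and shorter on the other. Zones with the same leader in both lines numbered 744. The target region was not left out of this count, and no switch inside it was counted as a moved edge. An edge of a zone was counted as moved only where it adjoined a run classed above as a moved edge. Edges beside any other change of leader were counted as not moved, so the counts of moved edges are too low. By this count 213 zones had neither edge moved, 326 had 1 moved edge and 205 had both. In 123 of the 205 the zone was longer in the clone on one side and shorter on the other, in 45 it was shorter on both sides and in 37 longer on both. Among zones led by S1, 16 were shorter on both sides in the clone, 5 longer on both sides and 18 longer on one side and shorter on the other. Among those led by S3, 8 were shorter on both sides, 15 longer on both and 42 longer on one side and shorter on the other. Zones longer on one side and shorter on the other made up 18 of 39 for S1 and 50 of 76 for S2. They made up 42 of 65 for S3 and 13 of 25 for S4. These counts were not tested.

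Along the chromosome the balance of earlier and later switches was uneven. Of 20 segments of 10 Mb, 12 held more later and 8 more earlier switches. From 40000001 to 80000000, which holds the target region in its last 10 Mb, 34 switches were earlier and 143 later in the clone (19.2% earlier). In the rest of chromosome 1 there were 305 and 355 (46.2% earlier). The target region itself lies in the segment from 70000001 to 80000000, where 3 windows outside it were led by an earlier and 35 by a later fraction in the clone. The excess of later switches in these 40 Mb was found in each pair of fractions. There were 41 windows with S2 in the clone and S1 in Wt against 13 of the opposite switch, 68 with S3 in the clone and S2 in Wt against 8, and 34 with S4 in the clone and S3 in Wt against 13. The index over all windows did not differ in the same measure, with a median difference of -0.0125 in these 40 Mb and -0.0132 elsewhere. Other segments had a similar balance: 16 switches were earlier and 49 later from 130000001 to 140000000, 7 and 23 in the first 10 Mb, 9 and 24 from 160000001 to 170000000, and 11 and 32 from 180000001 to 190000000. These 4 had between 23.3% and 27.3% earlier switches, against 7.89% to 27.5% in the 4 segments from 40000001 to 80000000. The next segment above those, from 80000001 to 90000000, held 18 earlier and 17 later switches. The excess of later switches was thus not centred on the target region. The segments from 20000001 to 30000000 and 120000001 to 130000000 held more earlier ones, with 38 earlier and 20 later and 25 earlier and 12 later. The segments were set after the values had been seen.

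**Figure D4:**
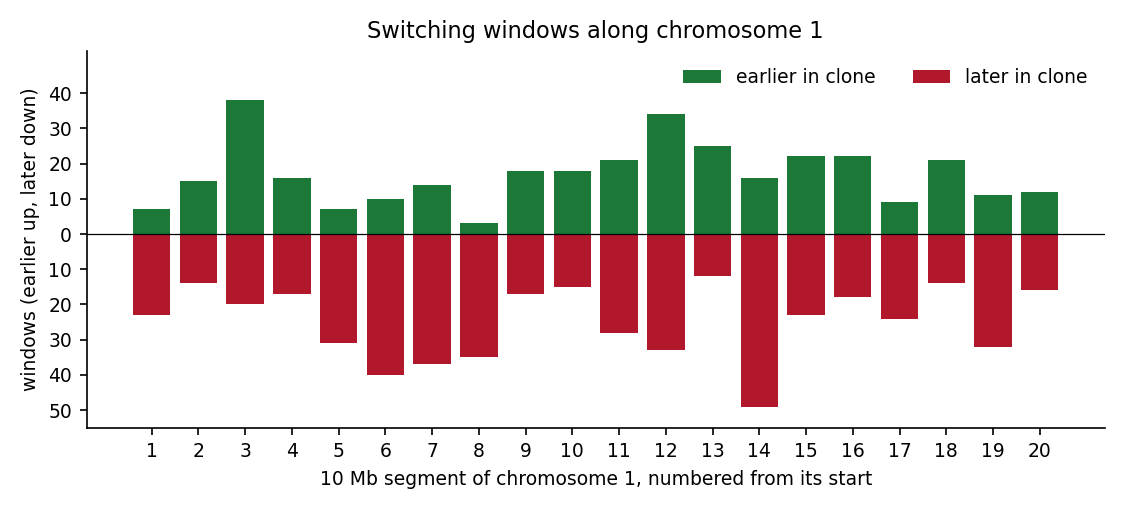
Number of switching windows in each 10 Mb segment of chromosome 1 (x axis, numbered from the start), with earlier switches drawn upwards in green and later switches downwards in red. Segments 5 to 8 hold few earlier windows (7, 10, 14 and 3) and 31 to 40 later ones each.

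Inside the target region 11 of 12 switches were earlier, while next to it most were later, as from 40000001 to 80000000. Within 1 Mb of its ends, 13 of 100 windows switched by 1 fraction, 3 earlier and 10 later in the clone. Below the region 10 of 50 windows switched (3 earlier and 7 later), and above it 3 of 50, all later. Over all compared windows the share that switched was 8.62%, with 498 of 837 later. From 40000001 to 80000000 it was 9.31%, with 143 of 177 later. Inside the region, which did not count as switching windows by the rule, 12 of 78 windows (15.4%) had a leader 1 number apart, 11 earlier and 1 later. The smaller lead of these 12 had a median of 5.54 points, against 2.34 outside. Those from 72520001 to 72660000 were consecutive and all led by S2 in the clone and S3 in Wt, so the 12 are not separate changes. The nearest switching window below the region, at chr1:71880001-71900000 and 81.29 kb from it, was led by S2 in the clone (39.5%, with S3 at 31.6%) and by S3 in Wt (40.3%, with S2 at 37.1%). The nearest above it, at chr1:73540001-73560000 and 7.624 kb from it, was led by S3 in the clone (43.5%, with S2 at 30.6%) and by S2 in Wt (38.6%, with S3 at 31.3%). The S2 signal as deposited there was 0.178 SD units in the clone and 0.969 in Wt, and the weighted average was -0.137 in the clone and 0.563 in Wt.

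Switching windows of 1 direction were grouped into clusters when they lay at most 200 kb apart with no switch of the other direction between them, a rule set after the values had been seen. Of 333 clusters, 38 held at least 5 switching windows, 11 earlier and 27 later in the clone. In most of these 38 the timing index differed little, with a median absolute difference of 0.0627 over clusters. In 3 it was above 0.3, and in each of these 3 the index of every window of the cluster, switching or not, differed in the direction of the switches. That agreement of every window was found in 12 of the 38 and so was not particular to these 3.

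The cluster with the most switching windows lay at chr1:113600001-114220000 and was earlier in the clone. Of its 31 windows 21 switched, 7 to S1 in the clone where S2 led in Wt, 7 to S2 where S3 led and 7 to S3 where S4 led, and the other 10 kept their leader. Both lines had an S1 maximum in its middle, with the highest S1 share of any window at 77.8% in the clone and 55.3% in Wt. Over the whole 620 kb the shares of S1, S2, S3 and S4 were 37.0%, 29.3%, 21.3% and 12.4% in the clone, against 21.7%, 27.1%, 27.2% and 24.0% in Wt. The index had a median of 2.97 in the clone and 2.50 in Wt, and the difference lay between 0.258 and 0.602 in all 31 windows. The switches were arranged in order on both sides of the maximum. Those with S1 in the clone lay nearest to it and those with S3 in the clone at the lower end. On the lower side each zone lay further out in the clone. On the upper side the S1 and S2 zones did, while the S3 zone of Wt had no counterpart in the clone, where S4 followed S2. At the lower end, the 7 windows from 113600001 to 113740000 were led by S3 in the clone (45.6%, with S4 at 28.8%) and by S4 in Wt (52.4%, with S3 at 34.6%). At the upper end, the 8 windows from 114060001 to 114220000 held 39.1% S2 and 36.0% S1 in the clone, against 32.6% S2 and 30.7% S3 in Wt. The next window up, from 114220001 to 114240000, was led by S2 in the clone and S4 in Wt and so was not a switch by 1 fraction. The weighted average was higher in the clone in all 31 windows, the summed signal was 5.52% higher, and the cluster lay 1331 kb from the nearest gap or end of the weighted-average profile.

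A cluster of the opposite kind lay at chr1:137700001-138220000. Of its 26 windows 19 were led by a later fraction in the clone, 6 by S2 where S1 led in Wt, 8 by S3 where S2 led and 5 by S4 where S3 led. The S1 maximum in it reached 32.2% in the clone and 49.3% in Wt. Over the 520 kb the shares of S1 to S4 were 13.9%, 26.8%, 33.9% and 25.4% in the clone, against 22.6%, 30.7%, 30.4% and 16.3% in Wt. The median index was 2.37 in the clone and 2.69 in Wt, with differences between -0.471 and -0.152, and the weighted average was lower in the clone in 23 of the 26 windows. At its upper end, the 5 windows from 138120001 to 138220000 were led by S4 in the clone (51.6%, with S3 at 33.1%) and by S3 in Wt (43.8%, with S4 at 35.3%).

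The third of these clusters, at chr1:184900001-185200000, had 15 windows, of which 9 were led by a later fraction in the clone, 7 by S3 where S2 led in Wt and 2 by S4 where S3 led. Its shares of S1 to S4 were 8.56%, 22.9%, 40.8% and 27.8% in the clone, against 21.1%, 31.0%, 32.8% and 15.1% in Wt. The median index was 2.18 in the clone and 2.66 in Wt. The median lead of the 9 switching windows was 16.5 points in the clone and 2.60 points in Wt. The weighted average was lower in the clone in all 15 windows. The summed signal was 19.5% lower in the clone, and its part in the result was not tested.

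**Figure D5:**
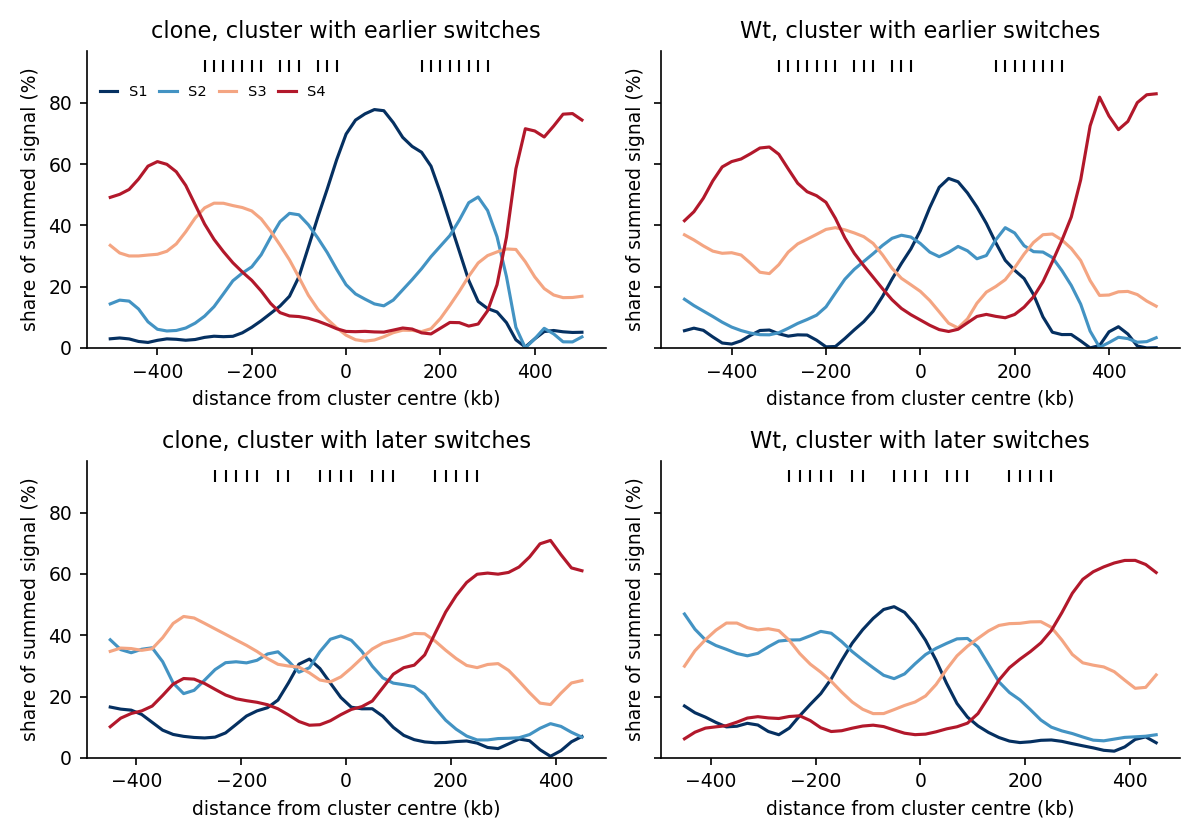
Share of the summed signal (y axes, %) of S1 to S4 in 20 kb windows against the distance from the cluster centre (x axes, kb), in the clone (left) and Wt (right), for the 620 kb cluster of earlier switches (top) and the 520 kb cluster of later switches (bottom); black ticks mark the switching windows of the cluster. The S1 maximum is higher in the clone in the top row (77.8% against 55.3%) and lower in the clone in the bottom row (32.2% against 49.3%).

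The other long runs differed less between the lines. The longest run to an earlier fraction was 220 kb, at chr1:88100001-88320000, where all 11 windows were led by S3 in the clone (36.1%, with S4 at 32.6%) and by S4 in Wt (39.0%, with S3 at 32.1%). Its 11 smaller leads lay between 2.39 and 4.23 points. At chr1:172660001-172780000, 6 windows were led by S3 in the clone (37.2%, with S4 at 30.5%) and S4 in Wt (39.9%, with S3 at 35.4%). At chr1:109100001-109240000, S2 led 7 windows in the clone (37.1%, with S3 at 32.8%) inside a zone that S3 led on both sides in both lines, and in Wt S3 led there as well (39.2%, with S2 at 35.6%).

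Among the later runs, 8 windows at chr1:92780001-92940000 were led by S4 in the clone (42.3%, with S3 at 39.0%) and by S3 in Wt (42.4%, with S4 at 38.6%). A run of the same length at chr1:156060001-156220000 was led by S3 in the clone (37.8%, with S2 at 31.5%) and by S2 in Wt (36.2%, with S3 at 33.2%). Its summed signal was at the 99.2nd percentile in both lines, with deposited S3 values of 3.56 SD units in the clone and 2.66 in Wt. Directly above it, from 156220001 to 156540000, 10 windows switched to an earlier fraction in the clone, so switches of opposite direction met there. At chr1:185840001-185960000, 6 windows were led by S3 in the clone (35.8%, with S2 at 33.0%) and S2 in Wt (37.3%, with S3 at 31.6%). The weighted average there went against the switch, at 1.95 SD units in the clone and 1.45 in Wt, and the clone had 14.6% more summed signal. In the run from 156060001 the median index was 2.55 in the clone and 2.52 in Wt. The median of the differences within its windows, clone minus Wt, was -0.0211, so these summaries went in opposite directions. The weighted average of this run was 0.542 SD units in the clone and 0.428 in Wt, so a later shift in timing is not shown there. At chr1:132880001-133000000, S4 led 6 windows in the clone (46.1%, with S3 at 38.6%) within a zone led by S3, and S3 led them in Wt (44.2%, with S4 at 40.3%).

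For 5 of the 6 switches, the window with the largest smaller lead lay near a gap of the weighted-average profile or in the last part of the chromosome, and in each of them the summed signal was in the lowest 3 deciles of windows in at least one of the lines. The largest smaller lead, 89.9 points, was at chr1:195180001-195200000, where S3 took 100% in the clone and S4 91.6% in Wt, with a summed signal at the 0.336th percentile in the clone and the 4.92nd in Wt. The largest for S4 in the clone and S3 in Wt was at chr1:196020001-196040000, with S4 at 72.2% in the clone and S3 at 75.5% in Wt, and summed signals at the 28.2nd percentile in the clone and the 0.408th in Wt. At chr1:195220001-195240000, S2 took 73.2% in the clone and S1 62.4% in Wt. At chr1:74660001-74680000, S3 took 60.8% in the clone and S2 66.5% in Wt, at the 0.275th percentile of signal in the clone and the 0.235th in Wt. At chr1:1880001-1900000, S2 took 74.1% in the clone and S3 87.1% in Wt. The last 2 windows have no weighted average, and lay 18.5 kb and 3.77 kb from the nearest values of that profile, in intervals that it leaves out. The remaining switch, S1 in the clone and S2 in Wt, had its largest smaller lead, 12.2 points, at chr1:114100001-114120000 in the cluster of earlier switches described above, with S1 at 50.7% in the clone and S2 at 37.5% in Wt. Of the 22 windows with a smaller lead of at least 10 points, 10 lay within 500 kb of a gap or end of the weighted-average profile, against 69 of all 837 switching windows (8.24%).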

How the data were processed

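Repli-seq profiles of chromosome 1 from 8 libraries (S1 to S4 of the clone and of Wt) were used; chromosome 14 was profiled in Wt and was not used here. The submitters' processing notes name Bowtie2 and the build galGal5. The authors deposited each fraction as scores in SD units, normalized per the file headers, at 196153 positions 1 kb apart, with mean 0 and SD 1 over the chromosome; the weighted-average profiles are deposited scores scaled within 16 stretches, named Wt and cl6, and cl6 was taken as the clone. Strands were amplified before sequencing, per the labels' protocols. For filters, normalization and smoothing the method was not given in the sources used here. Fraction profiles run through intervals that the weighted average leaves out.

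Each fraction was reduced by its 1st percentile, set to 0 below it, divided by its mean and averaged over 20 kb windows with at least 10 values (Python 3.11.15, numpy 2.4.6, pandas 2.3.3). The chromosome length in the deposited table (other values) is 196202544 bases. The windows, groupings and named regions were chosen with earlier results of these data known. By the rule for naming, the 5 longest runs per direction, the window with the largest smaller lead per switch, the nearest to the target region and those at the threshold are given. With 1 library per group no p-value was computed. The counting of switches was tested on a copy of the Wt profiles with adjacent fractions exchanged in known windows. That checks the counting only, since the copy holds no noise between libraries. No gene or sequence is given, because no galGal5 annotation was used here. Alternatives are in the closing section.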

Additional observations from a re-analysis of the deposited data

How the results depend on the processing

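For 5 results (the number of switching windows, the share earlier in the clone, the share of runs at an edge, the median smaller lead and the median summed signal), 72 values under 15 alternative settings were computed, 2 of the settings chosen after seeing the data. A value was called moved when it left an exact (Clopper-Pearson) 95% interval for a percentage or changed by more than 1.5 times otherwise. The interval treats windows or runs as independent, which neighbouring ones are not. It served only as a limit for this tally and measured no sampling error. By these limits 60 values did not move and 12 moved. Only the share earlier in the clone could be called reversed, by crossing 50%, and 0 of its values were. The median summed signal is a percentile, at 67.3, so it could pass the limit of 1.5 times only downwards. The 837 windows became 1701 of 10 kb, 324 of 50 kb and 136 of 100 kb, since the number of windows changes; they became 464 with a lead of at least 2 points in both lines and 128 with at least 5. The share earlier in the clone, 40.5%, stayed under 50% in all 15 settings; it was 34.9% with the baseline at the minimum and 46.2% without the segments from 40000001 to 80000000. The share of runs at an edge, 75.3%, was 65.5% with windows of 50 kb and 51.6% with 100 kb. It was 56.1% with a lead of at least 2 points and 22.2% with at least 5. A minimum lead drops the windows nearest to the crossing of 2 fractions, and a run beside a dropped window no longer counts as an edge. The median smaller lead, 2.34 points, was 0.54 with the baseline at the minimum, where shares lie closer together because a constant is added to each fraction. Unscaled values allow no lead in shares, and the minimum leads set it, so it was not computed there. No paired analysis was possible because the clone and Wt had a single library per fraction. The profiles give no depth, and its effect was not assessed.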
